A study of Mus musculus with 3 samples.

Results

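The ribosome, which translates mRNA into protein, is built from ribosomal RNA and a single copy of most ribosomal proteins, those of its large subunit (Rpl genes, with the stalk proteins Rplp0, Rplp1 and Rplp2) and its small subunit (Rps genes, with Rpsa). Vertebrate ribosomal protein mRNAs are abundant, and many start with a run of pyrimidines, the 5′ terminal oligopyrimidine tract, through which growth signals control their translation as a group. Several subunits have a paralog made from a separate gene, among them Rps27 and Rps27l, Rpl22 and Rpl22l1, and Rpl36a and Rpl36al. Ribosomal protein genes were taken here by gene symbol alone, leaving out pseudogene symbols and the Rps6k kinases. The rule found 84 genes, of 31053 genes in the C57BL/6 table and 32285 in the tables of the other libraries.

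Invariant NKT (iNKT) cells are T cells that recognise lipids on CD1d; in the thymus their Ccr7+ precursors can mature into NKT1, NKT2 and NKT17 subsets or leave for the periphery. Single-cell RNA-seq was made from TCRβ+CD1d-tetramer+CD24-NK1.1- thymocytes sorted after CD8 depletion, from pooled mice, with 1 library per condition. The C57BL/6 library came from C57BL/6 mice that had no transplant and were 7 weeks old by the sample labels; the study's own description gives them a slightly higher age. In the other libraries the mice were recipients, 16 weeks old, of a transplant given 9 weeks before; they were F1 hybrids of C57BL/6 x BALB/c and had been irradiated lethally. The BM only mice received T cell-depleted C57BL/6 bone marrow and were free of chronic graft-versus-host disease (cGVHD), and the BM + Spl mice received C57BL/6 splenic cells as well and developed cGVHD. The sort removed NK1.1+ cells, the bulk of mature NKT1 cells in C57BL/6 mice. With 1 library per condition no difference could be tested between conditions, so fold changes are given with exact 95% intervals that cover counting error only.

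After cells were kept with over 200 and under 6000 detected genes and under 10% mitochondrial counts, the libraries held 4434, 5970 and 5557 cells (C57BL/6, BM only and BM + Spl, in that order wherever 3 values are given) and between 34952063 and 58852959 unique molecular identifiers (UMIs, each standing for a captured mRNA molecule). The median cell held 12086.5, 4740 and 6495 UMIs. The file headers name Cell Ranger 3.0.2 for the C57BL/6 library and 7.0.0 for both transplant libraries, and T cell receptor β V segments had 1047 UMIs in the C57BL/6 library against 52355 and 72355. Kit, software, gene annotation and depth therefore cannot be told apart from condition between the C57BL/6 library and the others. The transplant libraries shared 43 cell barcodes, and the C57BL/6 library shared 0 with either of them. Xist, the RNA of the inactive X chromosome, was detected without Y-linked transcripts in 4311 of the C57BL/6 cells, and Y-linked transcripts in none. In the transplant libraries 847 and 936 cells had Xist alone and 2220 and 2461 had Y-linked transcripts alone, so that cells of male and female mice were mixed there; which mice were of which sex is not given in the sources used here.

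Cells were gated into subsets by UMIs of marker genes, none of them a ribosomal protein gene. A cell joined the subset with the largest share of its markers detected, with at least 3 of them, and T cells with at least 5 S phase or 4 G2/M markers were set apart as cycling. In the NKT1 gate the 12 NKT1 markers, such as Tbx21 and Il2rb, summed to 4340, 5753 and 4967 CPM (UMIs of a gene or list per 1000000 UMIs), against 299, 324 and 223 CPM in the NKT2 gate. The 8 NKT2 markers, such as Zbtb16 and Il4, summed to 1994, 2087 and 2163 CPM in the NKT2 gate against 432, 368 and 483 CPM in the NKT1 gate. The same markers set the gates, so these sums describe the gates and are no independent support for them. Exactly the minimum of markers was found in 6, 68 and 56 cells of the NKT1 gate and in 67, 63 and 56 of the NKT2 gate. It was found in 0, 33 and 32 cells of the NKT17 gate (132, 331 and 120 cells). In the Ccr7+ precursor gate (165, 290 and 607 cells) these were 25, 66 and 133. The regulatory T gate of the transplant libraries (665 and 857 cells) had 184 and 322. The NKT1 gate of the BM + Spl library also held CD8 T cell markers, at 557 CPM for Cd8a and Cd8b1 together against 56.3 CPM in BM only and 0.403 CPM in C57BL/6. The V segments of iNKT cells were taken as found in a cell where they held at least 80% of its β V segment UMIs. By this rule they were found in 36.6% of the cells with a V segment in the BM + Spl NKT1 gate, against 86.0% in BM only. In the NKT17 gate they were found in 58.1% of such cells in BM only and 35.4% in BM + Spl. In the Ccr7+ precursor gate it was 69.0% and 54.6%, with Cd8a and Cd8b1 together at 88.5 and 246 CPM. In S phase cells it was 73.1% and 68.4%, and in G2/M cells 70.0% and 68.25%. These transplant gates thus also held cells with other V segments. The share of cells with these β V segments among T cells that are not iNKT cells was not measured. The percentages therefore do not give the share of iNKT cells in a gate. Regulatory T cells (Foxp3 and Ikzf2), plasmacytoid dendritic cells (Siglech and Irf8) and B cells (Cd79a) passed the sort in numbers only in the transplant libraries, with 665 and 857, 183 and 384, and 78 and 54 cells; the plasmacytoid dendritic gate held 2 cells in C57BL/6.

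A few reference sequences are given here first. Rps27 and Rps27l each have a coding sequence of 255 bases in the GRCm38 annotation, and 194 of these (76.1%) were identical, so that their UMIs can be told apart over most of the length. The coding sequences are shown with the bases that differ from the paralog in capitals.
Rps27: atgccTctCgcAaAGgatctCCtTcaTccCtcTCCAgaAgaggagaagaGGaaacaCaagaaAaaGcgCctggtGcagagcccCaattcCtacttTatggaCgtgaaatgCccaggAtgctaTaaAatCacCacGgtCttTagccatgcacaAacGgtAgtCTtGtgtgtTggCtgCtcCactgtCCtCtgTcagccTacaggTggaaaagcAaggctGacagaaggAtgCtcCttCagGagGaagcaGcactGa
Rps27l: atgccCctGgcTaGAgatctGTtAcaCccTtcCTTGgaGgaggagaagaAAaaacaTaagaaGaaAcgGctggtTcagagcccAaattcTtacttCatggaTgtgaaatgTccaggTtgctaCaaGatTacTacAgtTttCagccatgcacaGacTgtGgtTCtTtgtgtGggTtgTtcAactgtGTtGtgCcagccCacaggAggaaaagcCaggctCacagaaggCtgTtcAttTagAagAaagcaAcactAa

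RefSeq promoter windows (GRCm38.p6) were available for 65 of the 84 genes, with 77 start sites. A run of at least 6 C or T letters on the coding strand that reached within 5 bases of the start site was present in 34 of these 77 promoters (44.2%), against 6905 of 32851 promoters of all genes (21.0%). For runs of at least 10 letters the shares were 24.7% and 5.10%. The windows of some genes whose levels differed between subsets are shown from 10 bases before to 20 bases after the annotated start. They run 5′ to 3′ on the gene's strand, with the longest pyrimidine run near the start in capitals. Rpl28, Rps26 and Rpl31 were among the genes highest in NKT2 over NKT1 cells. Rpl15, which is also higher there, has the longest run of these. A link between run length and ratio was not tested. Rps27, which was lower in cycling cells, and Rps27l, which was higher, are shown as paralogs; Rps27l has a pair of annotated starts, and at the first of them the longest run has only 4 letters, short of the 6 counted above. These letter matches describe the reference only.
Rpl28, chr7:4792955-4792984 (+ strand): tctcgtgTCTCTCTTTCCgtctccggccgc
Rps26, chr10:128626487-128626516 (- strand): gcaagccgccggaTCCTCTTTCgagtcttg
Rpl31, chr1:39367841-39367870 (+ strand): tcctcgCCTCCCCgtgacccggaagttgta
Rpl15, chr14:18270967-18270996 (- strand): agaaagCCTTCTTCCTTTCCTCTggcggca
Rps27, chr3:90213629-90213658 (- strand): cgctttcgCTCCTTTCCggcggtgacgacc
Rps27l, chr9:66946403-66946432 (+ strand): gggCTTCagggtcactaacgggcctcgcag
Rps27l, chr9:66946076-66946105 (+ strand): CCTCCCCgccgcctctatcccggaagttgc

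Ribosomal protein genes were a large part of all captured mRNA. They held 32.8% of the UMIs in the C57BL/6 library, 25.1% in BM only and 25.5% in BM + Spl. Large-subunit genes held 17.80%, 13.04% and 13.34% of the UMIs and small-subunit genes 14.95%, 12.04% and 12.19%. The median cell had a share of 32.7%, 24.4% and 24.4%, and the range from the 5th to the 95th percentile of cells was 25.01% to 41.0%, 9.31% to 33.6% and 11.4% to 35.0%. Both lower shares lay in the libraries counted with the later software version. Mitochondrial genes also differed, with 6.42% of the UMIs in C57BL/6 against 0.722% in BM only and 0.533% in BM + Spl. The transplant thus cannot be told apart from kit, software, annotation or depth here.

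Of the 84 genes, 76, 66 and 68 exceeded 1000 CPM, and the median gene stood at 3877, 2887 and 3007 CPM. Each UMI counts 1 captured end of an mRNA, so CPM were not divided by gene length. The 5 highest genes were Rpl13, Rps24, Rplp1, Rpsa and Rpl32 in C57BL/6, at 7490, 7446, 7361, 7084 and 6840 CPM. In BM only they were Rpsa, Rps24, Rpl13, Rplp0 and Rps4x, at 8572, 8423, 7644, 7460 and 6214 CPM. In BM + Spl they were Rpsa, Rplp0, Rps24, Rpl13 and Rps20, at 8389, 8083, 7884, 7505 and 6493 CPM. Rpsa, a small-subunit protein also known as the laminin receptor precursor, Rps24 and Rpl13 were thus among the top genes of every library, and the 5 together held only 11.1%, 15.3% and 15.02% of all ribosomal protein UMIs. Rplp0, the base of the stalk that recruits elongation factors, was at 6292 CPM in C57BL/6. Its stalk partner Rplp1 stood at 7361, 2184 and 2254 CPM.

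Genes at the other end of the scale were 4 paralogs in each library. Rpl10l, an autosomal copy of X-linked Rpl10 known from testis, had 0 UMIs in every library, where a floor of 3 UMIs equals 0.0510 CPM in C57BL/6. Rpl3l, the striated-muscle form of Rpl3, had 0, 3 and 15 UMIs. Rpl39l, the testis form of Rpl39, had 33, 60 and 67 UMIs. Rpl7l1, which resembles Rpl7 at 52.1% of aligned coding positions, stood at 82.8, 60.2 and 60.8 CPM. After a minimum of 200 UMIs in a pair of cell groups, 81 of the 84 genes entered the comparisons within each library, and Rpl10l, Rpl3l and Rpl39l dropped out.

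**Figure D1:**
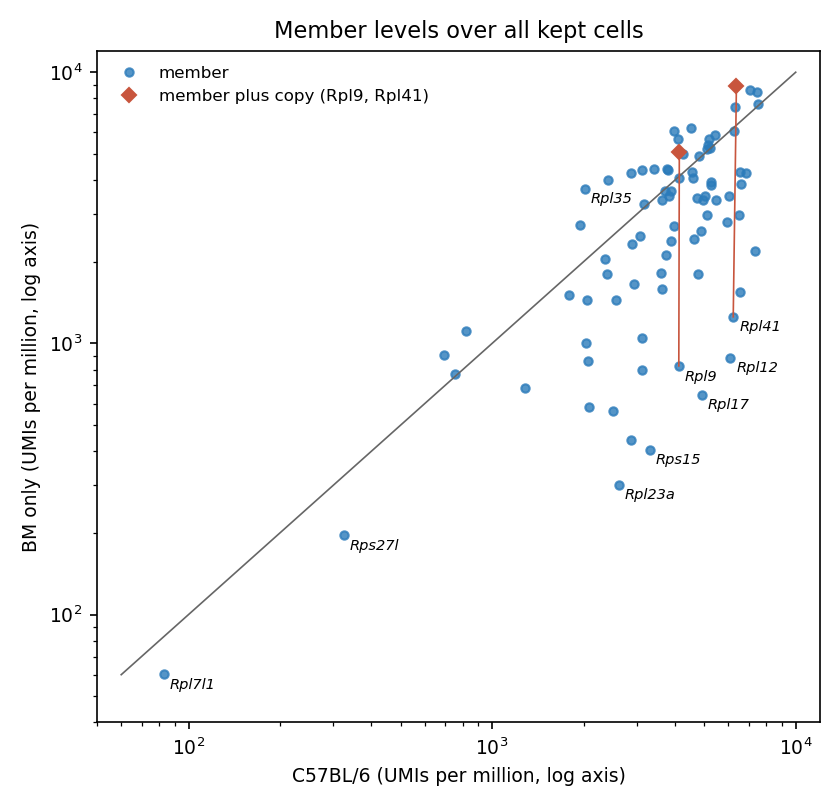
Level over all kept cells of the BM only library (vertical, CPM, log axis) against the C57BL/6 library (horizontal, CPM, log axis) for the 81 ribosomal protein genes with at least 200 UMIs in C57BL/6; each circle is 1 gene, the grey line marks equal levels, and the diamonds are Rpl9 and Rpl41 with the UMIs of their copies added, joined to the gene alone. Rpl23a, Rps15, Rpl17 and Rpl12 lie far below the line and Rpl35 above it, and both diamonds lie above it.

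The plot of levels over all kept cells shows how strongly single genes depended on the library, and the same was seen within a subset. In NKT2 cells, where 21.2% of all 7690 genes were past 1.5-fold higher and 16.5% past 1.5-fold lower in BM only than in C57BL/6, 7 ribosomal protein genes were higher and 28 lower. The log2 ratios ran from -2.92 (Rpl23a, at 354 against 2670 CPM) to 1.17 (Rpl35, at 4808 against 2142 CPM). Rps15, at 484 against 3450 CPM, and Rpl12, at 1102 against 6759 CPM, were also among the lowest. Ribosomal protein genes have many processed copies in the genome, and 19 of the 84 had in all 25 annotated copies with at least 95% identity over at least 90% of the coding sequence. A read that could come from a gene or its copy may be counted to either or dropped, so levels of these genes are uncertain.

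For a pair of genes the copy took most of the UMIs in the transplant libraries. Rpl9, a large-subunit protein, stood at 4120, 826 and 836 CPM. Rpl9-ps6 (chr19:32465865-32466578, GRCm38), annotated as a protein-coding gene and different from the Rpl9 coding sequence at 1 of 579 bases, had 949, 148456 and 180690 UMIs. Rpl9 and the copy together came to 4136, 5073 and 5008 CPM, a much narrower range than Rpl9 alone. Rpl41, whose 78 coding bases make it the shortest of the 84 genes, stood at 6225, 1253 and 1338 CPM. Gm10076 (chr14:105681828-105682211, GRCm38), annotated as a lincRNA that holds all 78 of these bases, had 9001, 268060 and 325469 UMIs. Rpl41 and Gm10076 together came to 6378, 8922 and 8852 CPM. Adding all copies to their gene moved the ribosomal protein share to 32.9%, 26.3% and 26.7%.

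Within each library the share of ribosomal protein mRNA differed between subsets, in the order NKT2, NKT1, NKT17, G2/M in all 3. NKT2 cells, which make IL-4, had the highest share of the gated subsets, at 35.3%, 30.1% and 30.7% of UMIs. NKT1 cells, which make IFN-γ, had 32.2%, 25.2% and 24.0%. The NKT17 gate, with Il23r among its markers, had 30.2%, 23.8% and 23.5%. After transplant iNKT V segments were in only 58.1% and 35.4% of its cells with a V segment. Cells in G2/M, marked by Mki67 and Top2a, had 28.6%, 22.7% and 23.0%. The NKT2 share exceeded the NKT1 share by 3.05, 4.89 and 6.72 percentage points and the G2/M share was lower than the NKT2 share, with differences of -6.68, -7.40 and -7.77 points. The NKT1 gate of BM + Spl had iNKT V segments in 36.6% of its cells with a V segment, against 86.0% in BM only. Neither the gap between NKT2 and NKT1 nor that between G2/M and NKT2 was recomputed among cells with an iNKT V segment. Cells of the Ccr7+ precursor gate (33.9%, 28.3% and 28.3%), the interferon-response gate (33.8%, 27.4% and 29.04%) and the S phase gate (32.9%, 26.5% and 27.0%) lay between NKT2 and NKT1 cells, the interferon-response gate below the Ccr7+ precursor gate in C57BL/6 and BM only and above it in BM + Spl.

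**Figure D2:**
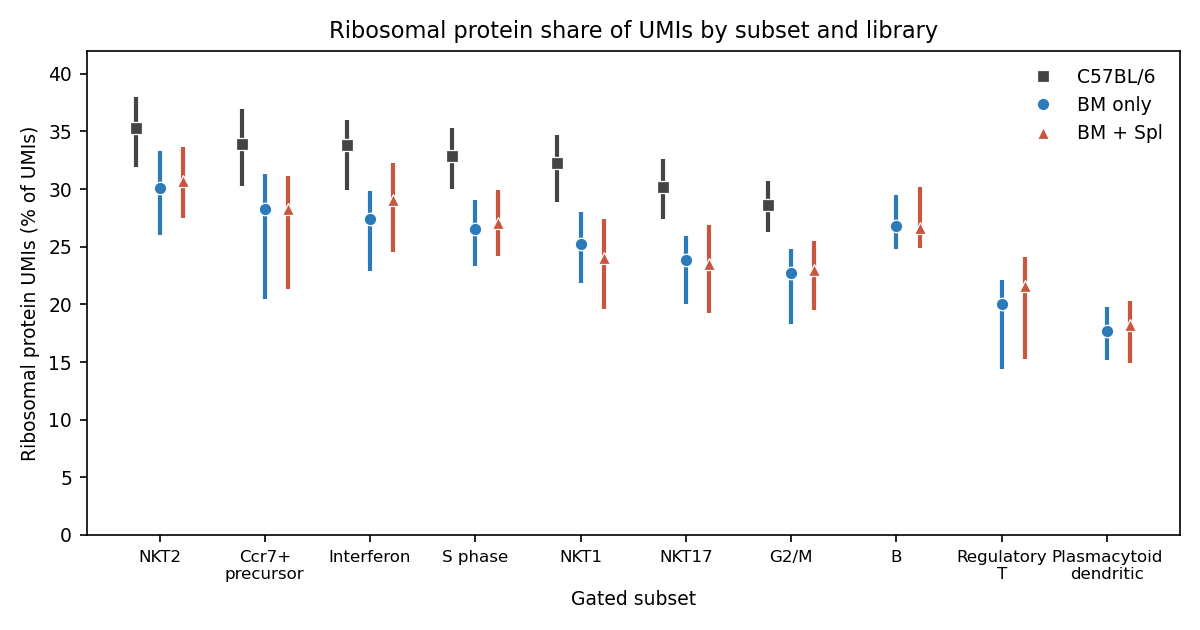
Ribosomal protein UMIs as a percentage of all UMIs (vertical axis) in each gated subset (horizontal axis), with 1 point per library for the share of the summed UMIs and a bar from the lower to the upper quartile of single cells. NKT2 cells are the highest subset in each library and plasmacytoid dendritic cells, measured in the transplant libraries, the lowest.

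The lowest shares were in the regulatory T and plasmacytoid dendritic gates of the transplant libraries. Regulatory T cells had 20.03% in BM only and 21.6% in BM + Spl, and plasmacytoid dendritic cells 17.6% and 18.2%, while B cells had 26.8% and 26.7%. The make-up of the regulatory T gate was not settled. iNKT V segments were in 32.6% and 26.5% of its cells with a V segment, and NKT1 markers summed to 1269 and 1668 CPM. How often other T cells have these V segments was not measured, so neither value shows how many iNKT cells it held. Counting error is small against these differences, but the spread between mice was not measured.

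Depth moved with the share. NKT1 cells were shallower than NKT2 cells, with a median of 6154, 4293 and 4345 UMIs against 12607, 7947 and 8703. Among cells with 6000 to 12000 UMIs, the share was 33.2%, 26.2% and 25.3% in NKT1 cells and 34.3%, 30.8% and 31.1% in NKT2 cells. Among those with 3000 to 6000 UMIs it was 30.4%, 25.5% and 24.0% against 31.2%, 28.0% and 27.4%. The NKT2 share was higher in both of these bands, by less in C57BL/6 than after transplant. Under 3000 UMIs, where the transplant libraries alone had enough cells, the shares were 20.2% and 18.2% in NKT1 cells and 17.8% and 18.9% in NKT2 cells, with no common direction. G2/M cells were the deepest, with a median of 21850, 14348.5 and 15650.5 UMIs, and at 6000 to 12000 UMIs their share was 26.6%, 19.2% and 18.9%.

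Most ribosomal protein genes were somewhat higher in NKT2 than in NKT1 cells, and a few were much higher. The median log2 ratio of the 81 genes was 0.13, 0.29 and 0.38, against -0.05, -0.01 and -0.02 over all genes. The interval of 61 genes lay above 0 in all 3 libraries and that of 1 gene, Rps27, below 0. The share of all genes with such intervals is not given, and counting intervals are narrow for genes with many UMIs. Past 1.5-fold, 5, 9 and 18 of the 81 were higher, where 8.98%, 9.22% and 11.5% of all genes were. None was past 1.5-fold lower in C57BL/6 and BM only and 1 (Rpl29) was in BM + Spl, where 12.5%, 16.1% and 14.8% of all genes were. The shift was therefore broad and small. With all cells of the gates, only in BM + Spl did the share of genes past 1.5-fold exceed the background clearly. Whether that excess over all genes was kept among cells of similar depth cannot be told, since their share of all genes is not given. Leaving mitochondrial and ribosomal protein genes out of the total moved the median of all genes to 0.04, 0.10 and 0.12 and the counts to 6, 18 and 29 higher. Among cells of 5000 to 15000 UMIs the counts fell to 2, 4 and 4, from 5, 9 and 18 in all cells of the gates. This band starts above the median NKT1 cell of the transplant libraries, at 4293 and 4345 UMIs. The share of all genes past 1.5-fold is not given for these settings.

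Among the genes past 1.5-fold higher in NKT2 cells of all 3 libraries were Rpl28, Rpl31 and Rps26. Rpl28, a large-subunit protein, was at 3179, 1969 and 1885 CPM in NKT1 cells and at 5280, 3739 and 3893 CPM in NKT2 cells, log2 ratios of 0.73, 0.93 and 1.05. Rps26, a small-subunit protein at the mRNA exit that is mutated in Diamond-Blackfan anaemia, was at 2321, 3312 and 3429 CPM against 3775, 6398 and 6434 CPM. Rpl31, which sits near the exit of the nascent chain, was at 840, 506 and 479 CPM against 1331, 804 and 850 CPM. In each of these the NKT2 value exceeded the NKT1 value of its own library, and the ratio was lowest in C57BL/6. Rpl15, another Diamond-Blackfan anaemia gene, was at 2838, 2335 and 2355 CPM against 4256, 3576 and 3793 CPM, ratios of 0.58, 0.61 and 0.69.

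**Figure D3:**
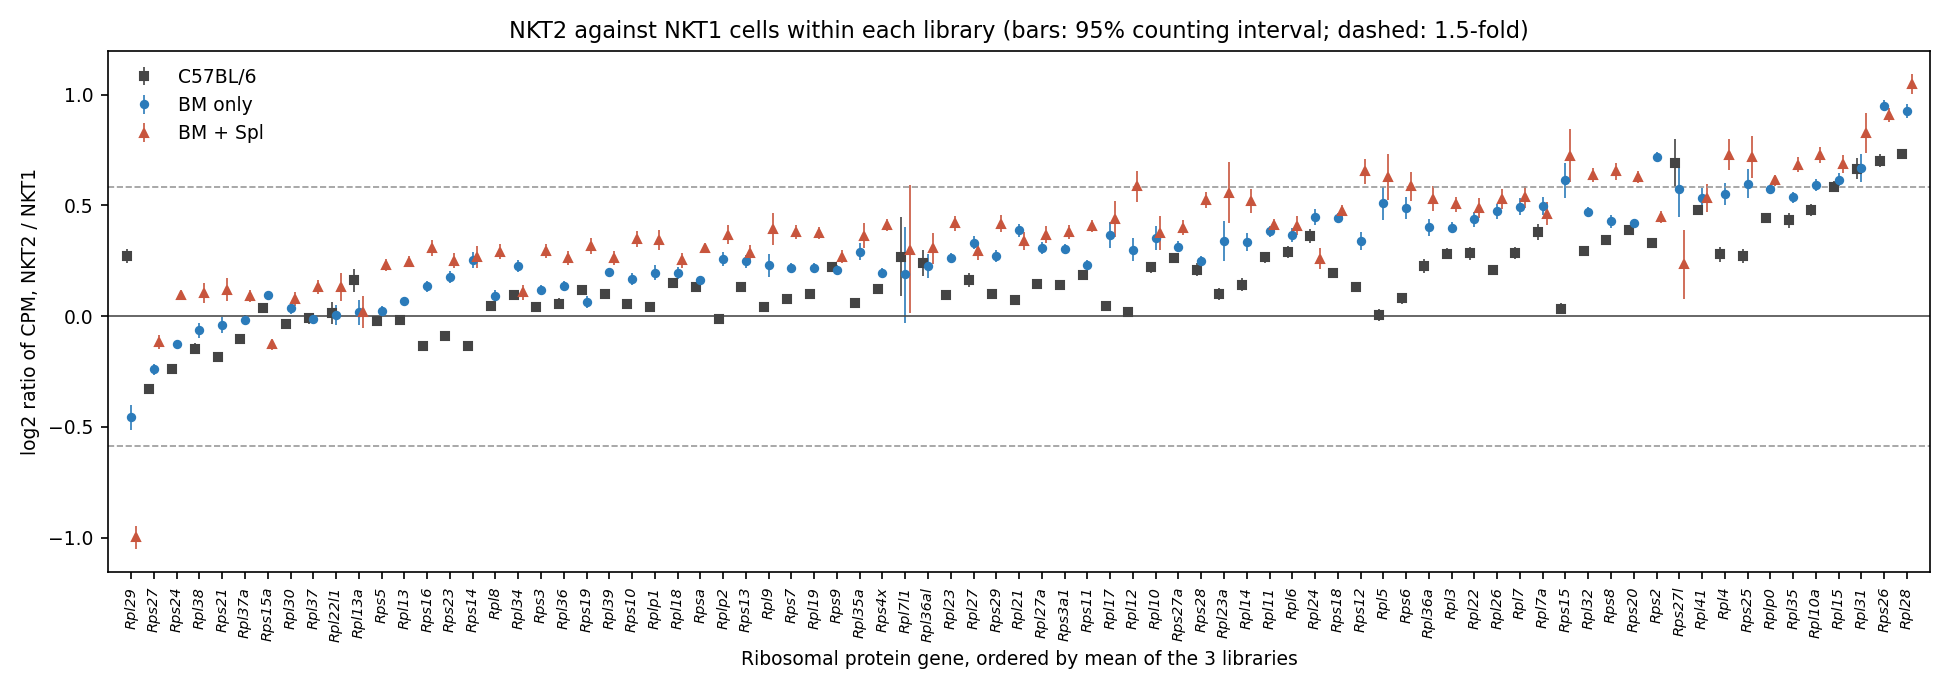
Log2 ratio of CPM in NKT2 over NKT1 cells for 79 of the 81 ribosomal protein genes compared (horizontal axis, ordered by their mean), 1 point per gene and library with its 95% counting interval; the dashed lines mark 1.5-fold. Rpl28, Rps26 and Rpl31 lie past 1.5-fold higher in each library, and Rpl29 is on opposite sides of 0 in C57BL/6 and in the transplant libraries.

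Rps27, a zinc-finger protein of the small subunit, ran the other way, with log2 ratios of -0.33, -0.24 and -0.12 (5293, 5441 and 4580 CPM in NKT1 cells and 4209, 4607 and 4226 CPM in NKT2 cells). In BM + Spl the sign was not stable: it was 0.02 with ribosomal protein genes left out of the total and 0.06 among cells with Y-linked transcripts and no Xist. Rps24 was lower in NKT2 cells in C57BL/6 and BM only (-0.24 and -0.12) and 0.10 higher in BM + Spl. The stalk protein Rplp0 had ratios of 0.44, 0.57 and 0.61, while Rplp1 (0.04, 0.20 and 0.34) and Rplp2 (-0.01, 0.26 and 0.37) were closer to 0. Rpsa had 0.13, 0.16 and 0.31. Subunits of the same particle thus differed in ratio by over 1 log2 unit within a library.

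Lists of other translation genes were set beside these. Of genes whose mRNAs share the pyrimidine start (translation factors such as Eef1b2 and Eef1g, the nucleolar protein Npm1 and the snoRNA host Gas5), 3 of 24, 6 of 25 and 5 of 25 were past 1.5-fold higher in NKT2 than in NKT1 cells and none lower, with medians of 0.23, 0.45 and 0.39, where 8.98%, 9.22% and 11.5% of all genes were higher and 12.5%, 16.1% and 14.8% lower. In C57BL/6 the count of this list was thus near the background. Eef1b2 was at 1197 CPM in NKT1 cells and 2042 CPM in NKT2 cells of BM + Spl, and Gas5 at 340 and 661 CPM in BM only. Of genes that make ribosomes (nucleolar methylation, rRNA transcription and assembly), 5 of 40, 5 of 38 and 16 of 34 were past 1.5-fold higher, with 0, 1 and 1 lower. The count stood clear of the same background in BM + Spl and near it in the other libraries. The NKT1 gate of BM + Spl had iNKT V segments in 36.6% of its cells with a V segment, and Wdr12 had 50 UMIs there. This list was not recomputed by V segment or depth. Wdr12, an assembly factor of the large subunit, had ratios of 0.92, 1.18 and 1.49, and Sbds, which releases Eif6 from the large subunit, had -0.51, -0.80 and -0.97. Mitochondrial ribosome genes had 6 of 77, 8 of 76 and 4 of 75 past 1.5-fold higher and 0, 0 and 1 lower, with medians of 0.26, 0.26 and 0.19; the counts higher were near or below the background.

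Cells of the cycling gates held more ribosomal protein UMIs per cell than NKT2 cells but had a smaller share. The median G2/M cell had 6216, 3113 and 3574.5 ribosomal protein UMIs, against 4448, 2429 and 2729 in NKT2 cells. S phase cells had 6540, 2947 and 3782. Over the same cells the share of UMIs was lower in G2/M than in NKT2 cells in every library. The gates differed in make-up after transplant. iNKT V segments were in 89.4%, 70.0% and 68.25% of G2/M cells with a V segment, against 90.2%, 90% and 85.8% in NKT2 cells. NKT1 markers summed to 267, 878 and 472 CPM in G2/M cells against 299, 324 and 223 CPM. Regulatory T markers summed to 457, 796 and 727 CPM against 539, 418 and 396 CPM. The part of this mix in the share was not tested. The cycling gates also needed a minimum of detected markers, so shallow cycling cells may be left out of them. After thinning to 2700 UMIs, with this minimum lowered, the G2/M gate held 287, 135 and 235 cells, against 597, 230 and 406 before. The NKT2 gate held 1432, 459 and 809 cells, against 1535, 521 and 787. The higher UMIs per cell thus cannot be told apart from gate entry. The part that gate entry, doublets and capture per droplet have in UMIs per cell was not tested.

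**Figure D4:**
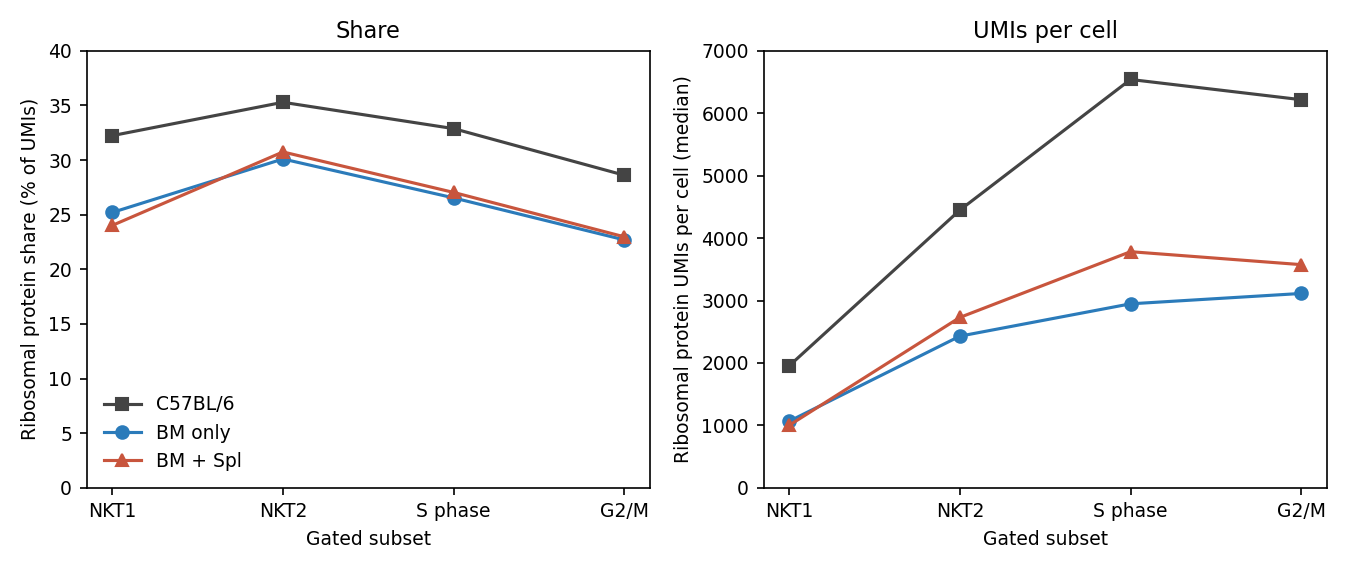
Ribosomal protein share of all UMIs (left, percent) and median number of ribosomal protein UMIs per cell (right) in NKT1, NKT2, S phase and G2/M cells of each library. In G2/M cells the share is lower than in NKT2 cells while the number per cell is higher.

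Per gene, the median log2 ratio of G2/M over NKT2 cells was -0.29, -0.39 and -0.41, against 0.03, 0.06 and 0.06 over all genes. The interval of 67 of the 81 genes lay below 0 in every library, but the share of all genes with such intervals is not given. Past 1.5-fold, 1, 2 and 5 were lower, fewer than the background of 12.4%, 8.23% and 7.88%, and 2, 1 and 1 were higher, against 16.9%, 16.7% and 17.7% of all genes. The counts near this limit depend on scaling: with a median-of-ratios size factor 2, 11 and 15 were lower, and with ribosomal protein and mitochondrial genes left out of the total, which moved the median of all genes to -0.15, -0.09 and -0.10, 16, 29 and 32 were lower. The share of all genes past 1.5-fold is not given for these scalings, so these counts have no background beside them. Of the ribosome production genes, 19 of 40, 6 of 33 and 7 of 37 were past 1.5-fold higher in the same cells and none lower, a count above the background of 16.9% in C57BL/6 and near that of 16.7% and 17.7% after transplant; their medians were 0.55, 0.25 and 0.16. Nop56, a core protein of the methylation snoRNPs, had ratios of 0.92, 0.75 and 0.75. Of the mitochondrial ribosome genes, 32 of 77, 13 of 74 and 12 of 78 were past 1.5-fold higher and none lower, again above the background in C57BL/6 alone, with medians of 0.53, 0.28 and 0.26. The pyrimidine-start partners had medians of -0.12, -0.34 and -0.26, on the side of the ribosomal protein genes.

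Rps27 and Rps27l moved furthest apart in cycling cells. Rps27 was the lowest of the 81 genes in each library, at 2589, 2739 and 2482 CPM in G2/M cells against 4209, 4607 and 4226 CPM in NKT2 cells, log2 ratios of -0.70, -0.75 and -0.77. Rps27l, its paralog and a known p53 target, was the highest, at 506, 330 and 374 CPM against 262, 193 and 203 CPM, ratios of 0.95, 0.77 and 0.88. Both genes passed 1.5-fold in every library, in opposite directions. In S phase cells Rps27l was at 393, 300 and 325 CPM (0.59, 0.64 and 0.68) and was the only gene past 1.5-fold higher, where 8.68%, 11% and 12.3% of all genes were. None was past 1.5-fold lower in S phase, where 5.41%, 5.86% and 5.83% of all genes were. The median of the 81 genes in S phase was -0.09, -0.17 and -0.17, smaller than in G2/M.

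As a share of the pair's UMIs, Rps27l made up 2.97%, 2.32% and 3.64% in NKT1 cells, 5.85%, 4.02% and 4.59% in NKT2 cells, 10.9%, 8.19% and 9.58% in S phase cells and 16.4%, 10.7% and 13.1% in G2/M cells. The order NKT1, NKT2, S phase, G2/M held in each library, and the exact binomial intervals of neighbours did not overlap. Plasmacytoid dendritic cells, which were not selected by cycle genes, had 7.41% and 6.86%. Rps27rt, a copy with the Rps27 coding sequence, held 10306, 2311 and 2109 UMIs and was not counted to the pair.

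Other genes that did not share the fall in G2/M cells were few. Rps15, a small-subunit protein, had log2 ratios of -0.17 in C57BL/6 and 0.27 and 0.40 after transplant. Rpl7l1 had 0.60, 0.40 and 0.18. Rps24 (-0.56, -0.54 and -0.62) was among the lowest beside Rps27.

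Rpl22 binds viral and cellular RNAs and is known for its need in αβ T cell development, and Rpl22l1 can take its place in the ribosome. Rpl22 was lower in NKT1 than in NKT2 cells (2114, 1926 and 1879 CPM against 2573, 2607 and 2638 CPM), while Rpl22l1 was nearly level (834, 1204 and 1077 CPM against 841, 1208 and 1180 CPM). Rpl22l1 thus made up 28.3%, 38.5% and 36.4% of the pair in NKT1 cells and 24.6%, 31.7% and 30.9% in NKT2 cells. In plasmacytoid dendritic cells it was 41.0% and 37.9%. Rpl36al made up 35.1% and 38.4% of its pair with X-linked Rpl36a in NKT2 cells of the transplant libraries, and 59.0% and 62.2% in plasmacytoid dendritic cells. There it stood at 1191 and 1420 CPM, above the 991 and 1086 CPM of NKT2 cells, while Rpl36a stood at 828 and 864 CPM, below the 1830 and 1739 CPM of NKT2 cells. Among the T cell and B cell gates the highest share of Rpl36al was 46.9%, in the NKT17 gate of BM + Spl. There 35.4% of cells with a V segment had an iNKT V segment.

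Plasmacytoid dendritic cells were the furthest from NKT2 cells in all. The median log2 ratio was -0.76 in both transplant libraries, and 61 and 63 of the 81 genes were past 1.5-fold lower, where 22.9% and 23% of all genes were. Rpsa, at 4025 and 4073 CPM against 10231 and 10339 CPM, and Rpl12, at 432 and 468 CPM against 1102 and 1178 CPM, were lowest. Rpl31 alone was past 1.5-fold higher, at 1536 and 1880 CPM against 804 and 850 CPM, a place where 20.4% and 22.2% of all genes stood. In regulatory T cells the medians were -0.60 and -0.51, with 42 and 30 genes past 1.5-fold lower (11.2% and 10.2% of all genes) and none higher (19.9% and 19.8%). Rpl28 (-1.09 and -0.99), high in NKT2 cells, was among the lowest there. In the NKT17 gate, mixed in its V segments after transplant, 0, 8 and 18 genes were past 1.5-fold lower than in NKT2 cells. Of all genes 8.15%, 9.8% and 14% were. None was past 1.5-fold higher (11.5%, 12.4% and 14% of all genes). In the Ccr7+ precursor gate the ratios were close to 0, with medians of -0.05, -0.09 and -0.13 and no gene past 1.5-fold in any library, where 2.32%, 3.96% and 6.47% of all genes were higher and 4.1%, 1.97% and 3.1% lower. In interferon-response cells the medians were -0.06, -0.15 and -0.10, with none past 1.5-fold higher (5.06%, 8.5% and 6.31% of all genes) and 0, 1 and 0 lower (4.84%, 8.58% and 4.73%), while 14 of 40, 19 of 26 and 12 of 33 ribosome production genes were past 1.5-fold lower.

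Between BM + Spl and BM only, the comparison of mice with and without cGVHD, ribosomal protein genes differed little. Over all cells the median log2 ratio was 0.05 and none of the 81 genes was past 1.5-fold, where 4.85% of all genes were higher and 5.45% lower. In NKT2 cells the median was 0.04, with none past 1.5-fold (0.464% and 1.27% of all genes). In NKT1 cells the median was -0.09 and 1 gene, Rpl29, was past 1.5-fold higher (7.06% of all genes) and none lower (8.31%). The NKT1 gate differed in its make-up between these libraries, with Cd8a and Cd8b1 at 557 CPM in BM + Spl and 56.3 CPM in BM only and iNKT V segments in 36.6% and 86.0% of cells with a V segment. Among cells with an iNKT V segment the median was -0.07 and Rpl29 was again the 1 gene past 1.5-fold, at a log2 ratio of 0.77. A β V segment alone was not shown to mark a cell as iNKT. A difference in make-up may thus remain among these cells and cannot be told apart from condition. Rpl38, Rps21, Rps28 and Rps29 were lower in BM + Spl with intervals below 0 in 9 of 9 gated subsets, by small amounts: log2 ratios ran from -0.43 to -0.20 for Rpl38, from -0.39 to -0.06 for Rps21, from -0.47 to -0.10 for Rps28 and from -0.39 to -0.16 for Rps29. Rpl7 (0.08 to 0.25) and Rps15a (0.06 to 0.30) were above 0 in 9 of 9. All 9 subsets come from the same pair of libraries, so they do not replicate each other. The share of all genes with such intervals in 9 of 9 is not given.

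Rpl38, Rps21, Rps28 and Rps29 have short coding sequences, of 213, 252, 210 and 171 bases. Not all genes went with length. Rpl23a, of 471 bases, had intervals below 0 in 7 of 9 subsets, and Rpl36al, of 321 bases, above 0 in 7 of 9. Across 81 genes, the log2 ratio of BM + Spl over BM only in NKT2 cells had a Spearman correlation of 0.50 with the coding length; genes of 1 library pair are not independent. The 19 genes with coding sequences under 360 bases had a median of -0.04 there and the other 62 a median of 0.06. Over the gated subsets the correlation ran from 0.16 to 0.50, and NKT2 cells had the highest. In NKT1 cells 45 of the 62 longer genes were lower in BM + Spl, beside 15 of the 19 shorter ones. The part of length in the difference was not tested, and with 1 library a condition library and cGVHD cannot be told apart.

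Rpl29, a large-subunit protein, differed most between cells with Xist and cells with Y-linked transcripts. It was higher in NKT2 than in NKT1 cells in C57BL/6 (2232 against 1848 CPM, log2 0.27) but lower in BM only (802 against 1100 CPM, -0.46) and in BM + Spl (1088 against 2172 CPM, -0.998). Cells with Xist made up 24.6% and 43.5% of the NKT1 gate and 3.07% and 10.3% of the NKT2 gate in the transplant libraries. In NKT1 cells Rpl29 stood at 1513 CPM in Xist cells and 581 CPM in Y cells of BM only, and at 2764 and 493 CPM in BM + Spl. In NKT2 cells it was 1586 and 783 CPM, and 3345 and 699 CPM. Xist cells were thus higher in both subsets and libraries, with log2 ratios of 1.38, 1.02, 2.49 and 2.26, and the same held in each of the other gates split. The Xist side of the NKT2 gate rests on 16 cells in BM only and 81 in BM + Spl. The split into Xist and Y cells was chosen after these values had been seen.

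**Figure D5:**
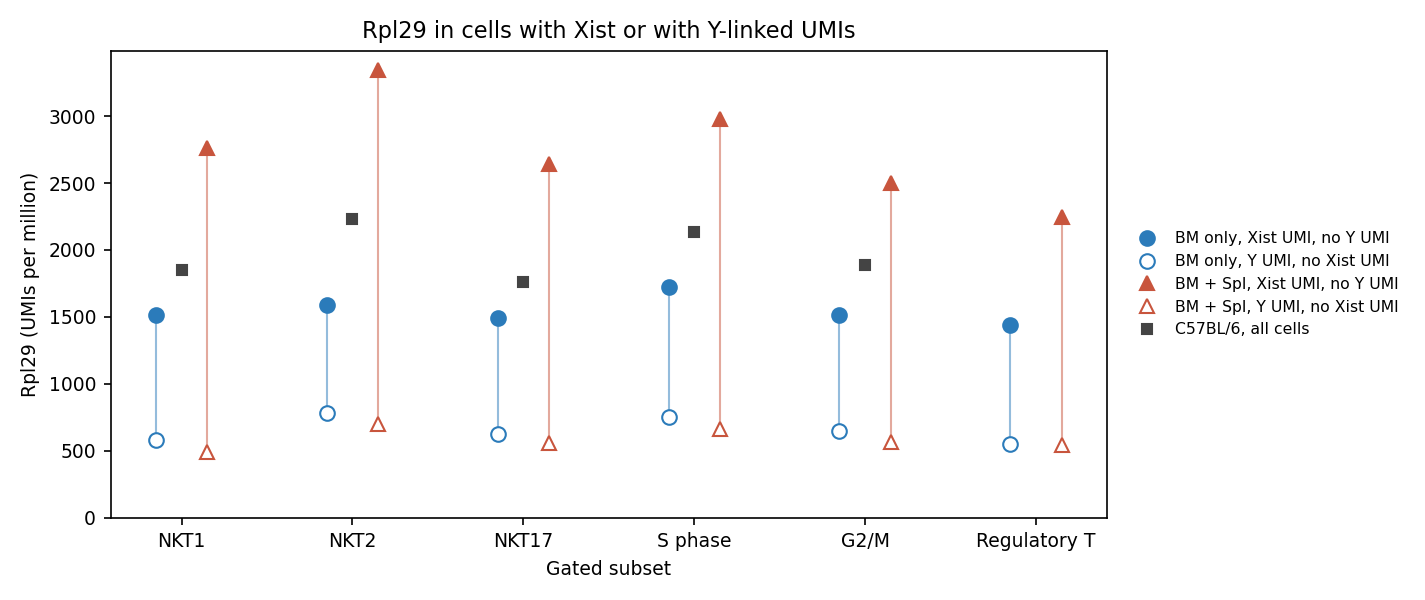
Rpl29 level (vertical, CPM) in cells with Xist and no Y-linked UMI and in cells with a Y-linked UMI and no Xist, by gated subset, in the transplant libraries; lines join the values of a library, and squares give all C57BL/6 cells of a subset. Xist cells are higher in every subset, and further apart in BM + Spl than in BM only.

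Within Y cells alone, the direction of Rpl29 turned: NKT2 cells were higher than NKT1 cells by 0.43 in BM only and 0.50 in BM + Spl on the log2 scale, as in C57BL/6. The NKT1 side of BM + Spl rests on 67 Y cells. The ratio of BM + Spl over BM only in NKT1 cells went from 0.98 in all cells to -0.24 in Y cells, and in NKT2 cells from 0.44 to -0.17. Of the 81 genes in NKT1 cells of BM only, 2 were past 1.5-fold between Xist and Y cells, Rpl29 higher and Rps2 lower (1.61% and 1.37% of all genes), and the rest lay between -0.33 and 0.26. In NKT2 cells of BM + Spl only Rpl29 of 81 was (2.17% of all genes higher and 2.72% lower). In some small groups more genes were past 1.5-fold. These were 7 of 81 in G2/M cells of BM only (20 Xist cells) and 7 of 73 in the NKT17 gate of BM + Spl (32 Xist and 27 Y cells). The share of all genes is not given for these gates. Rps2, a small-subunit protein at the mRNA entry, was at 3166 CPM in Xist cells and 5317 CPM in Y cells of the BM only NKT1 gate, and at 4058 and 7006 CPM in the NKT2 gate. That NKT2 gate held only 16 Xist cells. In BM + Spl it was at 5372 and 4791 CPM in NKT1 cells and 6723 and 7069 CPM in NKT2 cells, log2 ratios of 0.17 and -0.07. Rpl29 (chr9:106429454-106431568, GRCm38) and Rps2 (chr17:24718116-24721929) lie on autosomes. In C57BL/6, where 92.4% of NKT1 and 99.0% of NKT2 cells had Xist, Rpl29 stood at 1848 and 2232 CPM. The donor or host origin of each of these cells was not analysed here. A pair of near-identical copies of Rpl29 held 13 and 17 UMIs in C57BL/6.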

How the data were processed

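Thymic iNKT-sorted cells of 3 libraries, 1 per condition, were analysed from the matrices of UMI counts per gene and cell that the authors deposited. Per the labels, the reads were processed with Cell Ranger against mm10 and cells were analysed with Seurat 4.0.2; the kit used for each library is not given in the sources used here. No doublet caller was run and free RNA was not estimated. UMIs were summed over the cells of a gate and divided by all UMIs of those cells (CPM, or a percentage share); cells matching no gate (409, 622 and 922) entered only the totals. Ratios were taken between gates of the same library, or between libraries, over all genes with at least 200 UMIs in both cell groups together, and a gene was counted past 1.5-fold with no test, since cells are not replicates. Intervals are exact (Poisson for CPM, binomial for shares and ratios, 95%). Coding sequences and copies came from the GRCm38 annotation and promoter windows from RefSeq.

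The genes named are the 5 highest in each library, the 3 highest and 3 lowest ratios of each comparison, the paralog pairs, Rplp0 to Rplp2, Rpsa and, outside the 84 genes, Rack1 and Fau; some genes that the rule names are not reported here. Rpl15, Rpl31, Rps2, Rpl12, Rpl35 and the genes named from the translation lists were added after their values were seen. The genes and lists were chosen with earlier results of these data known. Python 3.11.15, numpy 2.4.6, scipy 1.17.1 and pandas 2.3.3 were used. The ratio and interval code was checked on simulated counts. Alternatives were another scaling, minimum, cell filter, stricter gates, thinning of cells to 2700 UMIs, iNKT V segments, mean over cells and, added later, depth bands, Y cells and added copies.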

Additional observations from a re-analysis of the deposited data

Results flagged for a closer look

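Directions that differed between libraries flagged the following genes, with log2 ratios in C57BL/6, BM only and BM + Spl; none of these differences was tested, since each condition has 1 library. In NKT2 over NKT1 cells, Rpl13 had -0.016, 0.067 and 0.25 and Rpl29 had 0.27, -0.46 and -0.998. In G2/M over NKT2 cells, Rpl36al had 0.15, -0.10 and -0.12, Rps15 had -0.17, 0.27 and 0.40, and Rps2 had 0.035, -0.19 and -0.15. In all but Rpl29 the C57BL/6 library was on the other side of 0 by 0.17 or less. That library was processed with another software version, and its kit, annotation and depth may differ too. Features outside the 84 genes also carried a signal: Gm10076, which holds the Rpl41 coding bases, had 268060 UMIs in BM only and 325469 in BM + Spl, and Rpl9-ps6 had 148456 and 180690.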

How the results depend on the processing

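No paired analysis was possible because each condition has 1 library, and no library could be left out. Among values past 1.5-fold, 2 turned direction, both for Rpl29 among Y cells, chosen after seeing the data. It went to 0.50 in NKT2 over NKT1 cells of BM + Spl, where 0 genes were then past 1.5-fold lower. It went to -0.24 in BM + Spl over BM only NKT1 cells, where 0 genes were then past 1.5-fold higher. Among Y cells G2/M over NKT2 gave 1 and 3 lower in BM only and BM + Spl. The share of all genes past 1.5-fold is not given for these comparisons among Y cells. Smaller values changed sign too, among them Rpl29 in NKT2 over NKT1 cells of BM only (0.43 among Y cells). The signs of the NKT2 minus NKT1 and G2/M minus NKT2 shares were kept with no cell filter, without mitochondrial UMIs, as a mean over cells, after thinning and under stricter gates. In depth bands the NKT2 minus NKT1 sign turned in BM only cells under 3000 UMIs (17.8% in NKT2 and 20.2% in NKT1 cells).

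Counts near 1.5-fold moved. The share of all genes past 1.5-fold is not given for these settings, so the counts cannot be set against a background. With UMIs outside mitochondrial and ribosomal protein genes as total, NKT2 over NKT1 gave 18 and 29 higher in BM only and BM + Spl, G2/M over NKT2 gave 1 higher in C57BL/6 and 16, 29 and 32 lower, and S phase 0 higher in C57BL/6 and BM only. With a median-of-ratios factor G2/M gave 1 higher and 2 lower in C57BL/6 and 11 and 15 lower after transplant, and S phase 0 higher in C57BL/6. In cells of 5000 to 15000 UMIs NKT2 over NKT1 gave 2, 4 and 4. With no minimum of UMIs NKT2 over NKT1 gave 1 lower in C57BL/6, G2/M and S phase 2 higher in each transplant library, and BM + Spl over BM only 1 higher. Cells thinned to 2700 UMIs, where gates needed 1 marker fewer, gave 2, 32 and 21 lower in G2/M, 0 higher in S phase of BM only and 1 lower in BM + Spl. With iNKT V segments G2/M gave 1 higher in C57BL/6 and 1 lower in BM only, and S phase 0 higher in both; with no cell filter G2/M gave 1 higher in C57BL/6.

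The share per library was 32.6%, 35.0%, 32.7% and 32.9% in C57BL/6 with no cell filter, without mitochondrial UMIs, as a mean over cells and with copies added. It was 25.3%, 23.4% and 26.3% in BM only for the last 3 of these, and 25.5%, 25.7%, 24.0% and 26.7% in BM + Spl. NKT2 exceeded NKT1 by 3.55, 4.98 and 6.79 points without mitochondrial UMIs, by 3.18, 4.62 and 6.91 as a mean over cells, by 2.60, 3.805 and 5.71 after thinning, and by 2.96 and 6.62 in C57BL/6 and BM + Spl under stricter gates. G2/M minus NKT2 was -7.52, -7.54 and -7.85 points without mitochondrial UMIs, -6.55, -7.47 and -8.00 as a mean over cells, -6.99, -9.41 and -8.84 after thinning, -6.83, -7.80 and -7.99 under stricter gates and -6.54 in C57BL/6 with no cell filter. The cause of these moves was not tested. Genes with few UMIs, near-identical copies and the single library per condition limit what these data can show.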

Other observations

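Of the genes named outside the 84, Rack1 also depended on the library. Rack1, a scaffold on the small subunit, was at 3228, 758 and 841 CPM in NKT2 cells, and Fau, a ubiquitin-like fusion with a small-subunit protein, at 4781, 6213 and 6292 CPM. Within libraries, Fau was lower in G2/M cells (3441, 4265 and 4304 CPM) than in NKT2 cells, on the same side as most of the 84 genes, and Rack1 was at 2693, 744 and 841 CPM.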
